A study of Mus musculus with 10 samples.

Results

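Lgi1, Syndig1, Amph, Pacsin1 and Tac1 are 5 genes best known from neurons, read here in RNA of cardiomyocytes isolated from infarcted mouse hearts. They are 5 of the 51789 genes counted, and all 5 passed the filter on low counts that left 15232 genes to test. They were chosen because their levels differed between the groups in these same libraries, together with their known roles at synapses, so their difference between the groups is a description here and carries no test. One group was TgGRK5-MI, transgenic mice that overexpress the kinase GRK5 specifically in cardiomyocytes, and the other was NLC-MI, their non-transgenic littermate controls. Both groups had undergone myocardial infarction (MI), and cells were collected on day 4 after it, with 5 libraries per group and 1 mouse per library. No uninjured hearts are compared here, every animal shares the infarction, and the promoter of the transgene is not given in the sources used here.

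Neurons pass signals at synapses, where vesicles fuse with the membrane, release transmitter and are taken back up by endocytosis. LGI1 is a secreted protein that binds the receptors ADAM22 and ADAM23 across the synaptic cleft, and its loss causes a form of epilepsy. SYNDIG1 is a membrane protein that associates with AMPA-type glutamate receptors. Amphiphysin, from Amph, and PACSIN1, also called syndapin 1, are lipid-binding proteins with curved BAR-type domains that act with dynamin when a vesicle is pinched off. TAC1 is the precursor of substance P and neurokinin A, peptides released by sensory nerve endings, including those in the heart.

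The smallest library, NLC-MI replicate 3, held 7968779 counts and the largest, NLC-MI replicate 2, held 23381527, and 3 counts, taken as the floor of the depth, equalled 0.121 to 0.393 CPM (counts scaled to library size with TMM). Grk5 itself averaged 60.4 ± 9.50 CPM among the NLC-MI libraries against 1222 ± 472 CPM among the TgGRK5-MI libraries (SD, n = 5 each) and did not overlap, so each library matched its label. The 10 cardiomyocyte markers summed to 59890 to 156294 CPM per NLC-MI library and to 63223 to 124589 CPM per TgGRK5-MI library. Fibroblast markers summed to 3994 to 23986 CPM and 4161 to 24617 CPM, and macrophage markers to 545 to 1730 CPM and 934 to 1950 CPM, so RNA of other cells was present in both groups. These are bulk samples, in which fewer cells of a type and less RNA per cell cannot be told apart.

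Lgi1 (ENSMUSG00000067242) lies on the plus strand of chromosome 19 from 38264536 to 38312214 in GRCm38, with 11354 exon bases. In NLC-MI replicates 1 to 5 it was at 2.51, 2.87, 6.15, 1.45 and 8.51 CPM. In TgGRK5-MI replicates 1 to 5 it was at 23.4, 12.3, 33.5, 13.5 and 10.1 CPM. The groups did not overlap and the TgGRK5-MI libraries were the higher ones, although NLC-MI replicate 5 and TgGRK5-MI replicate 5 came close to each other. The group means were 4.30 ± 2.94 and 18.5 ± 9.79 CPM (SD, n = 5 each), and the log2 fold change was 2.13 with a standard error of 0.49. Lgi1 had the 12th highest log2 fold change of the genes tested. In the transcript sequences, 1240 bases of Lgi1 matched the processed pseudogene Gm3888 (chromosome 15 from 92026359 to 92027598) at 99.9% identity. Gm3888 was not analysed here, and reads of it cannot be told apart from those of Lgi1 over these bases, so the Lgi1 values may include them. The antisense gene Gm42723 shares 532 exon bases with Lgi1 and had 0 counts in all 10 libraries.

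Syndig1 (ENSMUSG00000074736), on chromosome 2 from 149829211 to 150004392 with 2463 exon bases, rested on the fewest counts of the genes that were higher in TgGRK5-MI. It was at 0.705, 0.486, 0.916, 1.41 and 0.196 CPM in NLC-MI replicates 1 to 5, which rested on only 3 to 30 counts. It was at 2.28, 2.36, 4.17, 2.80 and 2.47 CPM in TgGRK5-MI replicates 1 to 5, on 26 to 54 counts. NLC-MI replicate 5 was at the floor of 3 counts and TgGRK5-MI replicate 3 stood above the rest of its group, and the groups did not overlap. The means were 0.742 ± 0.458 and 2.82 ± 0.784 CPM (SD, n = 5 each), and the log2 fold change was 1.91 with a standard error of 0.40. C530025M09Rik, which overlaps Syndig1 on the opposite strand over 290 exon bases, had at most 1 count in any library.

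Amph (ENSMUSG00000021314), on chromosome 13 from 18948205 to 19150921 with 4528 exon bases, had the smallest standard error of the 5 genes. Its levels were 1.32, 1.05, 2.09, 1.74 and 2.09 CPM in NLC-MI replicates 1 to 5. They were 7.92, 3.49, 7.74, 4.42 and 4.67 CPM in TgGRK5-MI replicates 1 to 5. The groups were well separated, and within TgGRK5-MI the libraries of replicates 1 and 3 were the highest. The means were 1.66 ± 0.465 and 5.65 ± 2.04 CPM (SD, n = 5 each), with a log2 fold change of 1.79 and a standard error of 0.30. Short stretches of up to 93 bases of Amph resembled transcripts of 35 other genes at 95% identity or more.

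Pacsin1 (ENSMUSG00000040276), on chromosome 17 from 27655509 to 27711482 with 6525 exon bases, went the other way. It was at 2.55, 2.75, 6.02, 3.61 and 2.09 CPM in NLC-MI replicates 1 to 5. In TgGRK5-MI replicates 1 to 5 it was at 0.984, 0.785, 1.22, 1.29 and 0.805 CPM, on only 12 to 22 counts. All TgGRK5-MI libraries lay below all NLC-MI libraries, and the spread in NLC-MI came mostly from replicate 3. The means were 3.41 ± 1.56 and 1.02 ± 0.232 CPM (SD, n = 5 each), and the log2 fold change was -1.74 with a standard error of 0.32.

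Tac1 (ENSMUSG00000061762), on chromosome 6 from 7554879 to 7565834 with 3399 exon bases, had the lowest level per kb of exon of the 5 genes in TgGRK5-MI. Its levels were 1.76, 0.810, 3.01, 2.91 and 1.77 CPM in NLC-MI replicates 1 to 5. They were 0.224, 0.175, 0.435, 0.969 and 0.376 CPM in TgGRK5-MI replicates 1 to 5, on 4 to 9 counts each. The groups overlapped in 1 place, since TgGRK5-MI replicate 4 was above NLC-MI replicate 2. The means were 2.05 ± 0.917 and 0.436 ± 0.317 CPM (SD, n = 5 each), and the log2 fold change was -2.36 with a standard error of 0.49, the 4th lowest of the genes tested.

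**Figure D1:**
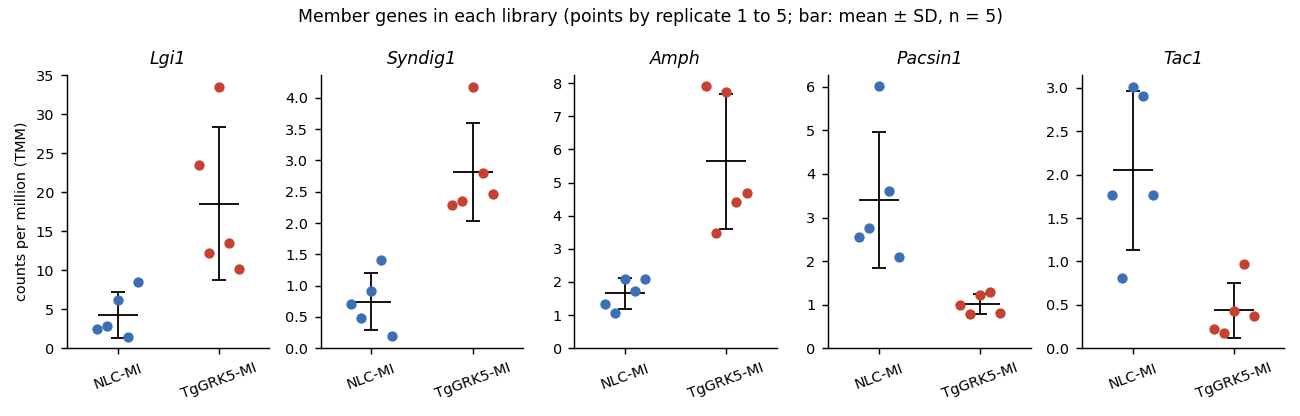
CPM (TMM scaled, linear axes from 0) of each gene in every library, with points in the order of replicates 1 to 5, blue for NLC-MI and red for TgGRK5-MI, and black bars for the mean ± SD (n = 5). The groups do not overlap for Lgi1, Syndig1, Amph and Pacsin1, and for Tac1 the TgGRK5-MI library at 0.969 CPM lies above the NLC-MI library at 0.810 CPM.

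The groups thus did not overlap for 4 of the 5 genes, where 1.00% of all genes tested had groups that did not overlap. One of the 5, Amph, passed an adjusted p under 0.10 in edgeR's quasi-likelihood test, as did 0.0788% of the genes tested. Its adjusted p of 0.0998 lay at the edge of that threshold. Of all genes tested, 1.77% were higher and 2.08% lower in TgGRK5-MI at an unadjusted p under 0.05. The genes were selected on this contrast, so these shares and the adjusted p of Amph are given as background only. They are no test of the 5 genes. Where no other tool is named, the p-values between groups given in the text are those of edgeR's quasi-likelihood test.

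Per kilobase of exon, the scale on which genes can be compared, the 5 genes lay close together in NLC-MI and apart in TgGRK5-MI. The mean levels in NLC-MI were 0.379 CPM per kb for Lgi1, 0.301 for Syndig1, 0.367 for Amph, 0.522 for Pacsin1 and 0.604 for Tac1. In TgGRK5-MI they were 1.63 CPM per kb for Lgi1, 1.14 for Syndig1, 1.25 for Amph, 0.156 for Pacsin1 and 0.128 for Tac1. The order was thus Tac1, Pacsin1, Lgi1, Amph and Syndig1 in NLC-MI, and Lgi1, Amph, Syndig1, Pacsin1 and Tac1 in TgGRK5-MI. The genes were chosen for differing between these groups, in both directions. The wider spread and the changed order in TgGRK5-MI follow from that choice and are no separate result. Among all genes tested, their levels per kb ranked between percentiles 6.55 and 13.9 in NLC-MI. In TgGRK5-MI Lgi1, Amph and Syndig1 ranked between percentiles 22.7 and 29.0, and Pacsin1 and Tac1 were at percentiles 2.37 and 1.63. All 5 therefore stayed in the lower part of the expressed genes in both groups.

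The relatives and receptors of LGI1 were measured at low levels in the same libraries. Lgi2, Lgi3 and Lgi4 encode the other LGI proteins, of which LGI4 is known from Schwann cells. Their log2 fold changes were 0.52 (standard error 0.40), 0.03 (0.32) and -0.02 (0.27), and none had an unadjusted p under 0.05. Per kb, Lgi1 made up 17.7% ± 13.0 of the summed level of the 4 Lgi genes in NLC-MI and 42.2% ± 16.9 in TgGRK5-MI (SD, n = 5 each). The groups overlapped for this share, at 7.86% to 34.4% in NLC-MI and 24.9% to 70.0% in TgGRK5-MI. The LGI1 receptor genes Adam22 and Adam23 had log2 fold changes of 0.15 (standard error 0.19) and 0.01 (0.28). Adam11, which encodes another protein of that ADAM group, was the only gene of the 14 listed LGI1 relatives and partners with an unadjusted p under 0.05 in edgeR with all libraries, while Rtn4r, a Nogo receptor gene, also passed it in limma-voom and without TgGRK5-MI replicate 2 or 4. Adam11 was at 9.07, 10.4, 4.97, 9.38 and 15.4 CPM in NLC-MI replicates 1 to 5 and at 5.99, 4.19, 4.52, 3.23 and 5.21 CPM in TgGRK5-MI replicates 1 to 5. Only NLC-MI replicate 3 overlapped the TgGRK5-MI libraries. Adam11 had a log2 fold change of -1.09 (standard error 0.28, unadjusted p = 0.00203), and over all genes edgeR's quasi-likelihood test gave it an adjusted p of 0.510. The same adjusted p was 0.0591 in DESeq2's Wald test and 0.0862 in limma-voom, and it ranged from 0.0591 to 1.00 over all alternatives.

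The AMPA receptor subunit genes, whose products SYNDIG1 associates with in the brain, were at very low counts apart from Gria3. The means of Gria3 were 4.98 ± 3.42 and 6.86 ± 2.87 CPM in the order NLC-MI, TgGRK5-MI (SD, n = 5 each), with a log2 fold change of 0.45 and a standard error of 0.47. Gria1, Gria2 and Gria4 reached at most 12, 3 and 8 counts in a library and did not pass the filter. Syndig1l, the closest relative of Syndig1, had at most 1 count. Prrt1 and Prrt2, which encode related membrane proteins of the synapse, had log2 fold changes of 0.19 (standard error 0.53) and 0.59 (0.72). Per kb, Syndig1 made up 22.9% ± 16.6 of the summed level of these 4 genes in NLC-MI and 50.5% ± 17.3 in TgGRK5-MI (SD, n = 5 each). The groups overlapped for this share, at 9.78% to 51.0% in NLC-MI and 23.2% to 65.4% in TgGRK5-MI. Of the 25 listed genes of the SYNDIG1 family and AMPA receptor complexes, 12 were tested and 0 had an unadjusted p under 0.05.

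Amphiphysin has a close relative in muscle, BIN1, which shapes the T-tubules of cardiomyocytes. Bin1 was at 32.9, 29.9, 14.7, 20.9 and 12.8 CPM in NLC-MI replicates 1 to 5 and at 23.2, 34.7, 15.6, 18.4 and 25.2 CPM in TgGRK5-MI replicates 1 to 5. The groups overlapped broadly, and its log2 fold change was 0.08 with a standard error of 0.29. Bin2 and Bin3 had log2 fold changes of -0.03 (standard error 0.32) and 0.10 (0.19). Per kb, Amph made up 4.96% ± 3.13 of the summed level of Amph, Bin1 and Bin2 in NLC-MI and 13.5% ± 6.91 in TgGRK5-MI (SD, n = 5 each). The groups overlapped for this share, at 1.93% to 9.53% in NLC-MI and 5.48% to 23.2% in TgGRK5-MI. Bin1 therefore remained above Amph per kb in both groups, at 5.40 and 5.69 CPM per kb.

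The clathrin pathway, on which amphiphysin acts, was expressed throughout, and 33 of its 35 listed genes were tested. Snap91, which encodes the neuronal clathrin adaptor AP180, averaged 19.9 ± 5.43 CPM over the NLC-MI libraries and 28.3 ± 5.61 CPM over the TgGRK5-MI libraries (SD, n = 5 each). The groups overlapped, with a log2 fold change of 0.51 (standard error 0.21, unadjusted p = 0.0348). Ston2, which encodes an endocytic adaptor of the stonin family, averaged 5.17 ± 1.34 and 3.37 ± 0.927 CPM, with a log2 fold change of -0.61 (standard error 0.26, unadjusted p = 0.0405). Neither passed the adjusted threshold, with adjusted p-values of 1.00 in edgeR's quasi-likelihood test. The unadjusted p of Snap91 lay between 0.0685 and 0.0783 when any 1 of NLC-MI replicates 1, 2 and 5 or TgGRK5-MI replicates 1, 3 and 4 was left out. That of Ston2 lay between 0.0701 and 0.0910 without NLC-MI replicate 3 or 5 or TgGRK5-MI replicate 3 or 5. It was 0.0589 in limma-voom. In edgeR it was 0.0808 with the replicate number as a block and 0.0833 with the covariate built from Xist and Y-linked genes. The list's most abundant genes per length, Hspa8, Ap2m1 and Clta, had log2 fold changes of 0.25, 0.32 and 0.30, none with an unadjusted p under 0.05 in edgeR with all libraries. Ap2m1 passed that threshold in DESeq2, with the covariate built from Xist and Y-linked genes, and without TgGRK5-MI replicate 1, where Clta passed as well.

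PACSIN1 is the brain form of a family in which PACSIN2 is found in many tissues and PACSIN3 mainly in muscle. Pacsin2 was at 165, 186, 228, 236 and 232 CPM in NLC-MI replicates 1 to 5 and at 198, 140, 231, 163 and 196 CPM in TgGRK5-MI replicates 1 to 5. Pacsin3 averaged 218.8 ± 52.2 and 219.8 ± 52.6 CPM in the same order of groups (SD, n = 5 each). The log2 fold changes were -0.18 (standard error 0.17) for Pacsin2 and 0.01 (0.21) for Pacsin3, and the groups overlapped for both. Per kb, Pacsin1 made up only 0.579% ± 0.311 of the summed PACSIN level in NLC-MI and 0.183% ± 0.0654 in TgGRK5-MI (SD, n = 5 each). The groups overlapped narrowly for this share, at 0.290% to 1.11% in NLC-MI and 0.126% to 0.296% in TgGRK5-MI. Of the 18 listed genes of the PACSIN family and membrane tubulation, 17 were tested. With all libraries in edgeR, 0 had an unadjusted p under 0.05. These genes included Ehd4, Cav1 and Jph2, which encodes the T-tubule junction protein junctophilin 2, with log2 fold changes of -0.10, 0.10 and -0.44. Jph2 passed that threshold with the covariate built from Xist and Y-linked genes and without NLC-MI replicate 3.

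Tac1 was the only tachykinin gene that passed the filter. It had 20 to 62 counts per library in NLC-MI and only 4 to 9 in TgGRK5-MI. Tac2 and Tac4 had at most 2 counts in any library. The tachykinin receptor genes Tacr1, Tacr2 and Tacr3 had at most 8, 0 and 1 counts, so none could be tested at this depth. Some genes of enzymes that process such peptides were expressed, though not all listed ones passed the filter. In the order NLC-MI, TgGRK5-MI, the amidating enzyme gene Pam was at 842 ± 146 and 784 ± 119 CPM. The carboxypeptidase gene Cpe was at 236.1 ± 49.7 and 239.7 ± 31.1 CPM (SD, n = 5 each). Of the 13 listed genes of tachykinin peptides, receptors and peptidases, 7 did not pass the filter. None of the 6 tested genes of this list had an unadjusted p under 0.05.

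**Figure D2:**
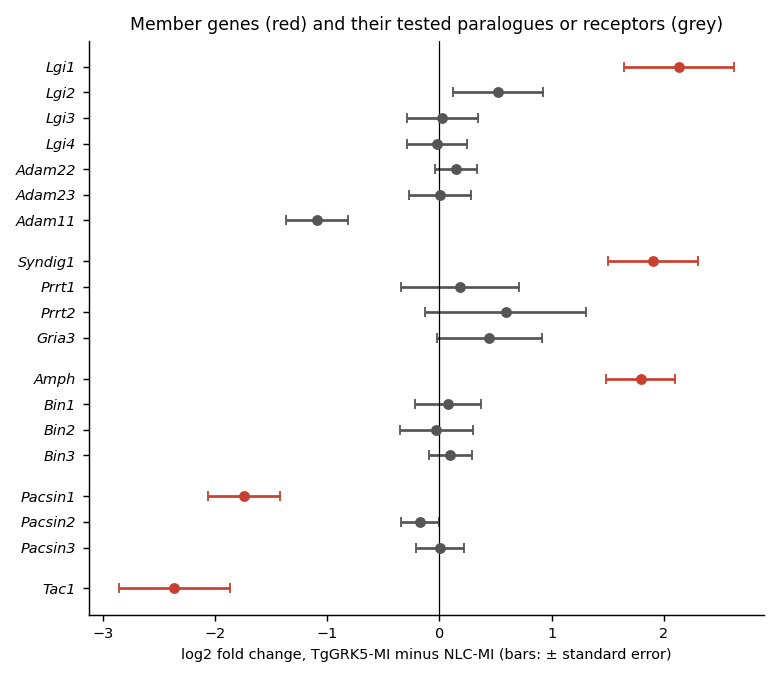
Log2 fold change (TgGRK5-MI minus NLC-MI) of each of the 5 genes in red and of its tested relatives or receptors in grey, with bars for ± the standard error from the edgeR fit. Lgi1, Syndig1 and Amph lie between 1.79 and 2.13 and Pacsin1 and Tac1 at -1.74 and -2.36, while the grey genes lie between -0.18 and 0.59 apart from Adam11 at -1.09.

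The general machinery of transmitter release and the repressor that keeps neuronal genes off in other tissues were examined as well. Of 25 synaptic vesicle and release genes, 17 were tested, with a median log2 fold change of -0.09. In edgeR with all libraries, 0 had an unadjusted p under 0.05. Vamp2 and Rab3a, which encode vesicle proteins, were among its most abundant genes per length and had log2 fold changes of -0.09 and -0.19. Several defining synaptic genes were at the floor of the depth, with Snap25 at no more than 1 count and Syt1 and Slc17a6 at 0 counts in all 10 libraries. Rest, which encodes the repressor, averaged 19.1 ± 3.42 and 15.8 ± 3.53 CPM in the order NLC-MI, TgGRK5-MI (SD, n = 5 each), and its log2 fold change was -0.28 with a standard error of 0.19. All 13 genes of its complex were tested, 0 had an unadjusted p under 0.05, and their median log2 fold change was -0.15.

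Over these 7 lists together, 107 of 139 genes were tested. By edgeR's quasi-likelihood test, 1 was higher and 2 were lower at an unadjusted p under 0.05, and 0 passed an adjusted p under 0.10. DESeq2 and limma-voom each had 1 gene past an adjusted p under 0.10, Adam11 in both. The share with an unadjusted p under 0.05 was 2.80%, against 3.85% of all genes tested. The median log2 fold change was -0.03, against 0.00 over all genes tested, and 50 genes had a positive and 57 a negative value.

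**Figure D3:**
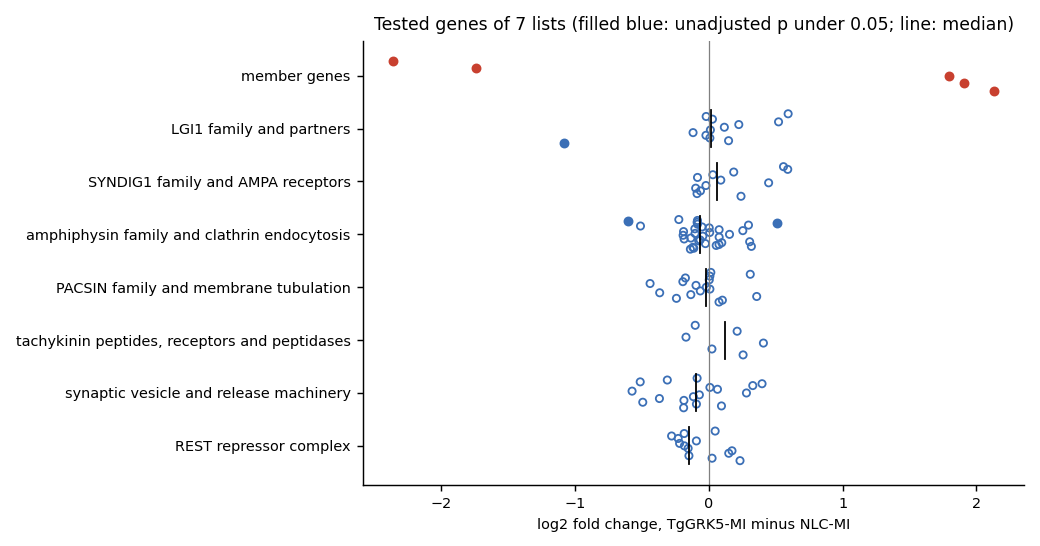
Log2 fold change (TgGRK5-MI minus NLC-MI) of the 5 genes in red and of every tested gene of the 7 lists in blue, with a black line at each list's median and filled blue points for an unadjusted p under 0.05. The list medians lie between -0.15 and 0.12 and the filled points are Adam11, Snap91 and Ston2, while the 5 genes, which were chosen for this difference, lie outside the range of the lists.

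Markers of neurons and glia were read beside the 5 genes. Of 18 pan-neuronal markers 7 were tested, and their summed level was 27.4 to 129 CPM per NLC-MI library and 57.9 to 101 CPM per TgGRK5-MI library. Most of this sum came from Tubb3 and Uchl1, which encode a tubulin and a ubiquitin hydrolase and had log2 fold changes of -0.30 (standard error 0.46) and 0.25 (0.34). Of 17 markers of autonomic and sensory neurons 4 were tested, among them Ret, Dbh and Scn10a. All 4 had a negative log2 fold change, with a median of -0.60 and no unadjusted p under 0.05 in edgeR with all libraries. Ret passed it in limma-voom, and Dbh with the replicate block and without NLC-MI replicate 1 or TgGRK5-MI replicate 3. The list summed to 10.5 to 15.7 CPM per NLC-MI library and 7.30 to 12.2 CPM per TgGRK5-MI library, and its part in the lower Tac1 level was not tested. Chat, Slc18a3, Sst and Dcx had 0 counts in every library, and Th had at most 5. Schwann cell markers summed to 27.4 to 34.9 CPM per NLC-MI library and 28.9 to 31.5 CPM per TgGRK5-MI library, with 9 of 12 tested and 0 at an unadjusted p under 0.05.

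Some markers of the conduction system and the atria were lower in TgGRK5-MI at an unadjusted p under 0.05. Hcn4, the main pacemaker channel gene, was at 3.44, 5.67, 9.68, 3.75 and 8.64 CPM in NLC-MI replicates 1 to 5 and at 1.92, 1.27, 2.78, 1.72 and 1.13 CPM in TgGRK5-MI replicates 1 to 5, with no overlap. Its log2 fold change was -1.82 (standard error 0.36). The adjusted p was 0.208 by edgeR's quasi-likelihood test, 0.000896 in DESeq2 and 0.0586 in limma-voom, and it ranged from 0.000896 to 0.605 over all alternatives. Cacna1g and Cntn2 were also lower at an unadjusted p under 0.05, with log2 fold changes of -0.62 and -0.69. The whole list of 15 pacemaker and conduction markers, of which 13 were tested, summed to 134 to 191 CPM per NLC-MI library and 133 to 165 CPM per TgGRK5-MI library. Of the 13, 8 had a negative and 5 a positive log2 fold change, with a median of -0.05. The most abundant of them per length, Irx3 and Smoc2, had log2 fold changes of -0.003 and 0.006. Of the 6 atrial markers, 5 were tested and all 5 had a negative log2 fold change, of which Myl7 alone had an unadjusted p under 0.05 (log2 fold change -1.27, standard error 0.55). Among the 18 alternatives, 7 gave Myl7 an unadjusted p above 0.05 (0.0525 to 0.129), and 7 did so for Cntn2 (0.0529 to 0.120). That list summed to 1222 to 3789 CPM and 1009 to 3501 CPM. The part of these cells in the Pacsin1 and Tac1 levels was not tested.

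**Figure D4:**
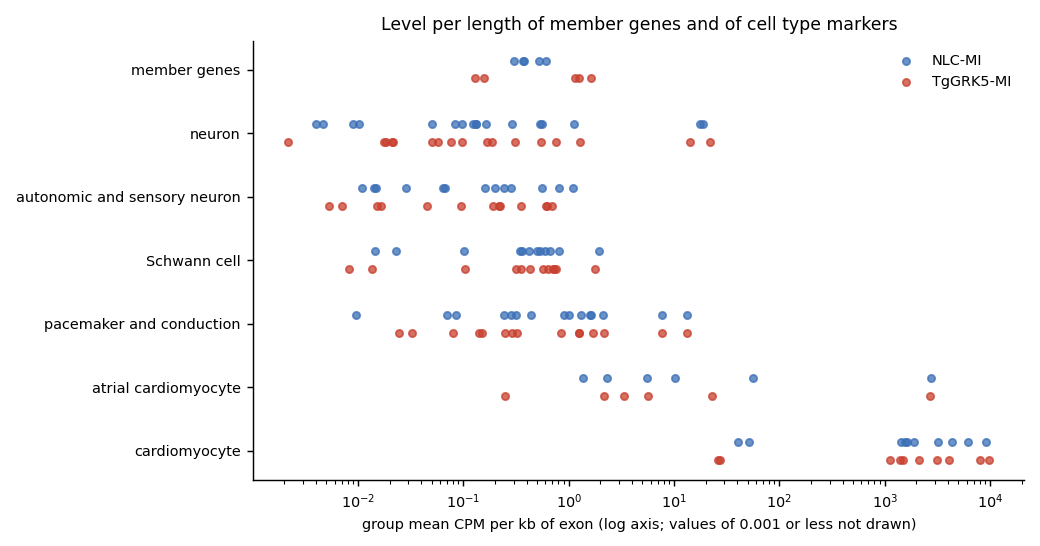
Mean level per kb of exon (CPM per kb, log axis) of the 5 genes and of cell type markers, in blue for NLC-MI and red for TgGRK5-MI, where each point is 1 gene and values of 0.001 or less are not drawn. The 5 genes lie between 0.128 and 1.63 CPM per kb, within the wide span of the neuronal and Schwann cell markers. Some pacemaker and conduction markers lie at such levels too. Among them are Hcn4 at 1.02 (NLC-MI) and 0.288 (TgGRK5-MI) and Cntn2 at 0.243 and 0.150 CPM per kb. Tubb3 and Uchl1 lie between 14.3 and 22.2 CPM per kb, and cardiomyocyte markers reach far higher.

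Deviations of single libraries from their group mean do not hold the difference between the groups that chose the genes, and they were compared between the 5 genes over all 10 libraries. Of the 10 pairs, 0 passed an adjusted p under 0.10 in the exact permutation test within groups (two-sided). Here r is Pearson's r of the deviations, and rho is Pearson's r of ranks taken separately within each group. The largest r was for Syndig1 and Pacsin1 (r = 0.68, exact p = 0.0983, adjusted p = 0.328, rho = 0.70, exact p = 0.0522, adjusted p = 0.174). Next came Lgi1 and Amph (r = 0.68, exact p = 0.0447, adjusted p = 0.328, rho = 0.60, exact p = 0.109, adjusted p = 0.273). Pacsin1 and Tac1, both lower in TgGRK5-MI, had r = 0.63 (exact p = 0.0663, adjusted p = 0.328) and rho = 0.75 (exact p = 0.0336, adjusted p = 0.174), the largest rho. Syndig1 and Tac1 had r = 0.47 (exact p = 0.200, adjusted p = 0.50) and rho = 0.70 (exact p = 0.0522, adjusted p = 0.174). Lgi1 and Syndig1, both higher in TgGRK5-MI, had r = -0.39 (exact p = 0.374, adjusted p = 0.593) and rho = -0.20 (exact p = 0.640, adjusted p = 0.842). For each pair, r was also taken without the 2 libraries farthest from the median deviation of its first gene, with the group means kept. It was 0.69 for Syndig1 and Pacsin1, 0.52 for Lgi1 and Amph, 0.73 for Pacsin1 and Tac1, and -0.30 for Lgi1 and Syndig1. With 1 library left out and the group means taken again, r of Lgi1 and Syndig1 ranged from -0.66 to 0.07. Grk5 was compared with the 5 genes in the same way, a choice made after the data were seen, and r ranged from -0.28 to 0.47 with adjusted p-values of 0.534 to 0.838 by the exact permutation test.

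**Figure D5:**
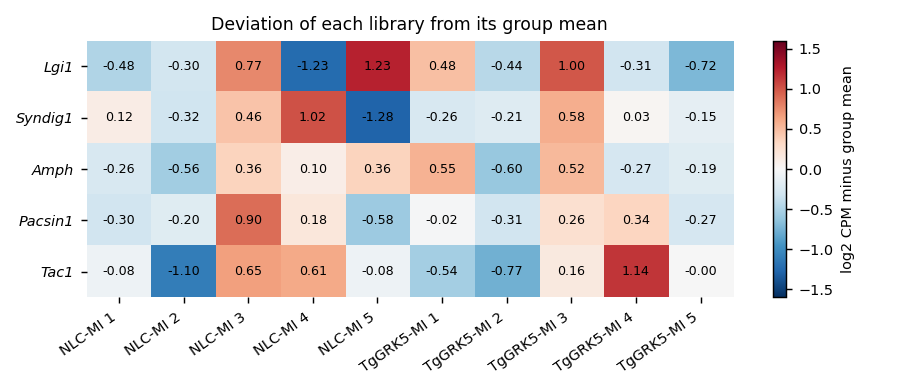
Log2 CPM of each gene in each library minus the mean of its group, from blue (below) to red (above), with the value in each cell. NLC-MI replicate 5 has the highest Lgi1 value (1.23) and the lowest Syndig1 value (-1.28), and TgGRK5-MI replicate 3 is above its group mean for all 5 genes.

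Other genes followed single members closely over these 10 deviations, as the highest of 14122 genes compared, and this is given as a description. The closest to Lgi1 were Klf9, a transcription factor gene induced by glucocorticoids, with r = 0.99, Ctf1, which encodes the cytokine cardiotrophin 1, with r = 0.98, and E130311K13Rik with r = 0.97. None of these 3 had an unadjusted p under 0.05 between the groups, with log2 fold changes of -0.25, 0.07 and 0.03. The closest to Amph were Zfp536 (r = 0.96), the mineralocorticoid receptor gene Nr3c2 (r = 0.95) and the sodium-proton exchanger gene Slc9a2 (r = 0.95). For Syndig1 they included Mrgpre (r = 0.94) and Slc9a3 (r = 0.91), for Pacsin1 they were Tmem184c (r = 0.96), Dlc1 (r = 0.96) and Gm14325 (r = 0.95), and for Tac1 Zwint (r = 0.95), Ptpn2 (r = 0.94) and Samd8 (r = 0.93).

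The genes that flank the 5 on the chromosome were read as well. Of the nearest protein-coding genes on each side, 8 were tested, and none had an unadjusted p under 0.05 in edgeR with all libraries. Vps41 passed it in DESeq2, in limma-voom and without NLC-MI or TgGRK5-MI replicate 5, and Slc35g1 and Sdhaf3 passed it in limma-voom. Fra10ac1 and Slc35g1, beside Lgi1, had log2 fold changes of 0.20 and 0.33, and Zfp120, beside Syndig1, had 0.17. Vps41 and Stard3nl, beside Amph, had 0.24 and -0.15, Rps10, beside Pacsin1, had 0.27, and Sdhaf3 and Asns, beside Tac1, had 0.24 and 0.14. The neighbours Cst10 of Syndig1 and Spdef of Pacsin1 had 0 and at most 1 count.

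The 250 bases before each gene's RefSeq start (GRCm38.p6) were searched on both strands for a few short motifs, as a description of sequence, for genes that differed in both directions. The motifs were CAGCACC and GGACAG, the 2 parts of the element bound by REST, TGACG, the core of the cyclic AMP response element, GGAAA, the core bound by NFAT, and the MEF2 box. The windows below show the matches of the REST and cyclic AMP motifs, which are 29 bases each on the plus strand with the match in capitals. The Pacsin1 and Tac1 matches are read on the minus strand.
Lgi1, chr19:38264651-38264679, 25 to 19 bases before the start: ctcccacctcgCAGCACCtcacaggtctc
Pacsin1, chr17:27685076-27685104, 151 to 146 bases before the start: gggcgtcccctgCTGTCCacccagggagg
Tac1, chr6:7554852-7554880, 197 to 193 bases before the start: tccctaaaattgCGTCAtttcgaacacaa
Tac1, chr6:7555006-7555034, 43 to 39 bases before the start: gctctacaggctCGTCAcgcctgagataa

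CAGCACC occurred in 1 of the 5 windows and in 5.73% of 32851 promoters of the same length, and GGACAG in 1 of 5 and in 18.7% of promoters. TGACG occurred in 1 of 5 and 17.8%, GGAAA in 2 of 5, Amph and Tac1, and 55.6%, and the MEF2 box in 0 of 5 and 2.92%. No gene had both parts of the REST element in its window. The Lgi1 match and the second Tac1 match lie inside exons of longer GENCODE transcripts. The windows of Syndig1 and Pacsin1 lie inside the GENCODE spans given above, before RefSeq starts at 149830783 and 27685239. Other starts of these genes were not searched. The windows of Syndig1 and Pacsin1 were rich in CpG, with 20 and 26 CpG dinucleotides and a GC content of 68.0% and 70.4%. Those of Lgi1, Amph and Tac1 held 10, 12 and 17, against a median of 6 over all promoters.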

How the data were processed

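RNA was sequenced from cardiomyocytes of 5 NLC-MI and 5 TgGRK5-MI mice with the Illumina TruSeq RNA kit named in the labels. The authors deposited whole-number counts per Ensembl gene, without normalization. The submitters' processing notes name mm10, Bowtie2, RSEM 1.2.31 and DESeq2. The annotation, the strand setting and any rounding are not given in the sources used here. Groups were taken from the labels. Symbols, positions and exon lengths came from GENCODE M21 on GRCm38, which matched 51596 of 51789 identifiers, and promoter sequences from RefSeq on GRCm38.p6.

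Counts were scaled with TMM and filtered with filterByExpr in edgeR 4.0.16 (R 4.3.3). All 15232 remaining genes were fitted in one quasi-likelihood model with Benjamini-Hochberg adjustment over all of them. The thresholds were an adjusted p under 0.10 and an unadjusted p under 0.05. CPM use the TMM factors and log2 CPM a prior count of 2. Counts of 3 were taken as the floor, which covers counting error only. The fit was tested on simulated data. Shared sequence was searched with blastn 2.17.0 (at least 75 bases at 95% identity).

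The 5 genes, the lists and the tests were chosen with earlier results of these data known. Named genes were the 5 genes, their paralogues and receptors, list genes with an unadjusted p under 0.05, the most abundant genes of each list, the 3 genes most alike in within-group deviations, and the neighbours. The alternatives were DESeq2 1.42.0, scaling by RLE or by library totals, limma-voom (limma 3.58.1) with quality weights, 2 other filters, the replicate number as a block, a sex covariate, a prior count of 0.5 and each library left out. For the cell type markers and for Grk5 they were added later, with the data seen. No columns of the authors' own comparisons were used. A few list genes are not reported here.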

Additional observations from a re-analysis of the deposited data

Results flagged for a closer look

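In 184 groups of 5 libraries, 1 for each group and each named gene that was tested and is reported, 8 libraries lay far from the other 4 by Dixon's gap ratio, of which chance gives about 1 in 20 groups. Syndig1 in TgGRK5-MI replicate 3 was at 4.17 CPM, against 2.80 CPM in the next library, and it was the only value of this kind among the 5 genes. Among the relatives and receptors, Adam22 was at 15.2 CPM in TgGRK5-MI replicate 4, with the next library at 12.8 CPM. Gsg1l, which encodes an auxiliary protein of AMPA receptors, was at 23.8 CPM in NLC-MI replicate 3, with the next at 14.8 CPM.

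NLC-MI replicate 3, the library with the fewest counts, also stood apart for Gm14325 at 18.2 CPM (next 9.95 CPM). It also had the highest Pacsin1 and Tac1 levels of its group. The cardiomyocyte marker Mb was at 17890 CPM in NLC-MI replicate 5, with the next library at 7812.5 CPM. The neutrophil markers S100a9 and S100a8 were at 4.97 CPM in NLC-MI replicate 4 (next 2.11 CPM) and 4.63 CPM in TgGRK5-MI replicate 4 (next 1.88 CPM). Sdhaf3, beside Tac1, was at 15.4 CPM in TgGRK5-MI replicate 5, with the next at 11.4 CPM.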

How the results depend on the processing

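The log2 fold changes of the 5 genes kept their sign under every alternative run. Leaving out 1 library gave 1.80 to 2.56 for Lgi1, 1.66 to 2.33 for Syndig1, 1.62 to 1.93 for Amph, -1.87 to -1.48 for Pacsin1 and -2.77 to -2.12 for Tac1. Every library had Xist at no more than 0.916 CPM and Y-linked genes at 158 to 222 CPM, so the sex covariate built from them had no difference in sex to adjust for. It gave 2.91 for Syndig1, -1.24 for Pacsin1 and -1.63 for Tac1, and the cause was not tested. A minimum of 10 counts in every library left no value for Syndig1 and Tac1. A block for the replicate number gave values of 2.25, 2.01, 1.74, -1.66 and -2.31 for Lgi1, Syndig1, Amph, Pacsin1 and Tac1 in turn. Same-numbered libraries correlated at 0.0717, 0.662, 0.381, -0.341 and 0.0848, so the numbers were not taken to pair mice. The block left 1 pathway list gene lower (2 in the fit without it) and 1 marker gene higher (0 without it) at an unadjusted p under 0.05.

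Pathway list genes that were higher at that threshold numbered 1, and 2 with DESeq2, 2 with limma-voom, 3 with the sex covariate and 0 to 2 with a library left out. Those lower numbered 2, and 1 to 4 with a library left out. At an adjusted p under 0.10 there were 0, and 1 each with DESeq2 and limma-voom. Of 79 cell type markers tested, 0 were higher, with 3 in limma-voom and 0 to 1 with a library left out. Those lower numbered 7, and 5 to 10 over the alternatives, so 8.86% had an unadjusted p under 0.05, against 3.85% of all genes tested. At the adjusted threshold 0 passed, and 1 each with DESeq2 and limma-voom. No pair of the 5 genes passed the adjusted threshold under any alternative. Depth limits Syndig1 and Tac1 most, at 3 to 30 and 4 to 9 counts in their lower group. Pacsin1 also rested on few counts in its lower group, 12 to 22.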

Other observations

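All 6 macrophage markers had a positive log2 fold change, with a median of 0.28, and 0 had an unadjusted p under 0.05 in edgeR's quasi-likelihood test. The 4 epicardium markers and the 3 tested neutrophil markers were all positive too, with medians of 0.35 and 0.19. The 1 tested lymphocyte marker had a log2 fold change of 0.65. Fibroblast and endothelial markers had medians of -0.01 and -0.08. Ryr2, the calcium release channel gene of cardiomyocytes, averaged 1489 ± 538 and 783 ± 184 CPM in the order NLC-MI, TgGRK5-MI (SD, n = 5 each). This gave a log2 fold change of -0.93, a standard error of 0.30 and an adjusted p of 0.968, and it was the only one of 10 cardiomyocyte markers with an unadjusted p under 0.05 in edgeR's quasi-likelihood test, while Mb also passed it in limma-voom. Cspg4, a pericyte marker, had a log2 fold change of -0.62 with a standard error of 0.28, and its unadjusted p was above 0.05 (0.0508 to 0.142) in 9 of 18 alternatives.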
